A study of Oikopleura dioica with 12 samples.

Results

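The 150 mRNAs described here were abundant in the total RNA of female Oikopleura dioica and yet gave few ribosome-protected fragments (RPFs), the short pieces of mRNA that a ribosome shields from nuclease. O. dioica is a planktonic tunicate, and in a day 6 female much of the body is the ovary with its giant shared germ cell. Whole animals were held in seawater for 1.5 h with 1 μM Torin 1, an inhibitor of the kinase mTOR, or with DMSO, the solvent alone, which served as the control. Total RNA and RPFs were sequenced from 3 biological replicates of each treatment, which gave 12 libraries in 4 groups: RNA DMSO, RNA Torin 1, RPF DMSO and RPF Torin 1. According to the methods of the study, each replicate was a beaker of pooled animals, and total RNA was taken from a subset of the animals collected from it. No strain, genotype or transgene is given for any group.

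Members were selected on measured values of the DMSO animals. Levels in RPM are the counts of a gene per 1000000 counts of its library. A gene had to reach a mean of 50 RPM over the 3 RNA DMSO libraries, which 4326 of the 17212 genes in the table did. These were ranked by the mean RPM of RPF DMSO replicates 2 and 3, plus 1, divided by the mean RNA RPM, and the 150 lowest were taken. RPF DMSO replicate 1 was left out of the rule because it resembles total RNA. The low ratio of the members in DMSO animals is therefore a description of the choice and not a finding.

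An mRNA that is present without ribosomes can be held in store. Growing oocytes of many animals stock mRNAs that are kept silent by proteins bound to their ends and are translated only at maturation or after fertilisation. The kinase mTOR adds a second layer of control, since it promotes translation, most strongly of TOP mRNAs, which encode ribosomal proteins and other parts of the translation machinery. In O. dioica many genes lie in operons, rows of closely spaced genes transcribed as one RNA and cut into single mRNAs by adding a spliced leader to the start of each. Ribosome density over an mRNA is commonly expressed as translational efficiency, the RPF level relative to the RNA level.

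Several libraries stood apart, and values without them are given beside the results that rest on them. RNA Torin 1 replicate 2 was nearly the same library as RNA DMSO replicate 2, which the rule used: log2 values correlated at 0.990 across genes, against 0.787 to 0.964 for the other pairs of RNA libraries. Their counts differed by close to sampling noise, with a chi-square per degree of freedom of 1.07 over 13099 genes, where pairs of RNA DMSO replicates gave 37.4 to 168. RPF DMSO replicate 1 correlated at 0.967 with RNA Torin 1 replicate 3, at 0.786 to 0.851 with the other RNA libraries and at 0.733 to 0.817 with the other RPF libraries. RNA Torin 1 replicate 3 correlated at 0.809 to 0.877 with the other RNA libraries. The pair thus resembled each other more than either resembled its own assay. Whether a library of the pair carries a wrong label was not tested. Depth also differed widely, with 7520819 to 27462750 counts in the RNA libraries, 22889270 in RPF DMSO replicate 1 and 91549 to 874562 in the other 5 RPF libraries. In RPF Torin 1 replicate 3, the shallowest library, 42.7% of counts fell on a single gene, GSOIDT00008149001. The tissue of origin could not be checked against marker genes, because the sources used here name only the models of a list of TOP mRNAs drawn up by the study.

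The members had a mean RNA level of 50.2 to 13765 RPM in DMSO animals, with a median of 122 RPM, close to the median of 112 RPM for all 4326 genes at the RNA minimum. Of the 150, 54 lay between 50 and 100 RPM, 62 between 100 and 200 RPM, 26 between 200 and 500 RPM and 8 at 500 RPM or more. The members were thus spread over the same RNA levels as the genes they were drawn from. The ratio that chose them ran from 0.0367 to 0.107 with a median of 0.0845, where the median over all genes at the RNA minimum was 0.545 and the highest ratio 30.4. The last member inside, GSOIDT00017471001, had a ratio of 0.1068, and the first gene outside, GSOIDT00011554001, one of 0.1068 as well. The next members inward, GSOIDT00011519001 and GSOIDT00002142001, had ratios of 0.107 and 0.106, and the next genes outward, GSOIDT00009198001 and GSOIDT00014769001, both 0.108. No gap separated members from the genes above them.

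**Figure D1:**
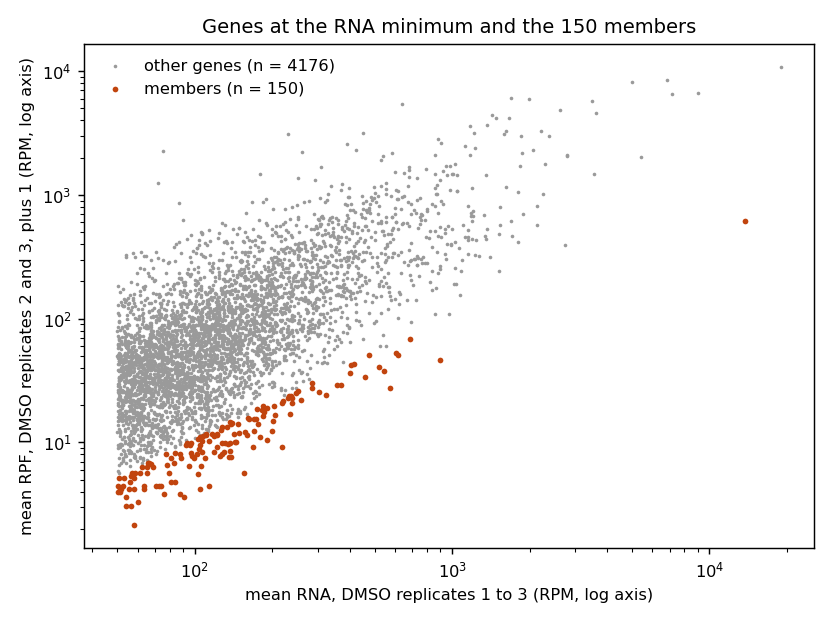
Each point is 1 of the 4326 genes that reached 50 RPM in RNA. The x axis is the mean RNA level in DMSO animals in RPM and the y axis the mean RPF level of DMSO replicates 2 and 3 plus 1 RPM, both on log axes. The 150 members (red) form the lower edge of the cloud, and 1 member, at 13765 RPM in RNA, lies far to the right of the others.

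Few reads stood behind the low side of the ratio. RPF DMSO replicates 2 and 3 together held 2 to 598 reads of a member, with a median of 10 reads, against a median of 76.5 over all genes at the RNA minimum. Both libraries together gave at least 10 reads for 80 members and fewer than 5 reads for 17. A count of 0 was found for 2 members in replicate 2 and for 13 members in replicate 3. The floor set here for such a count, 3 counts, makes 3.43 RPM in replicate 2 and 8.97 RPM in replicate 3. No member was at 0 in both. This floor covers counting error only and is not the exact Poisson interval given for single members below.

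Which genes enter the list depended on the libraries used. When RPF DMSO replicate 2 alone set the ratio, 91 of the 150 members were chosen again, and with replicate 3 alone 92. With all 3 RPF DMSO libraries, 90 were chosen again. Leaving out 1 RNA DMSO library at a time kept 134 to 140.

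The member with the lowest ratio was GSOIDT00005718001, a model outside any predicted operon (scaffold 19, 510998 to 514329, minus strand) with 10 coding exons and 1902 bp of coding sequence. Its RNA level in DMSO animals was 168, 113 and 186 RPM, and its RPF level in DMSO replicates 2 and 3 was 3.43 and 5.98 RPM. Only 5 reads stood behind both RPF values, with an exact 95% Poisson interval of 1.62 to 11.7 reads. In Torin 1 animals its RNA level was 57.7, 112 and 119 RPM, and its RPF level 9.74, 6.86 and 54.6 RPM, so that each RPF library stayed below each RNA library. The second lowest, GSOIDT00013470001 (scaffold 5, 1108156 to 1109663, plus strand), the downstream gene of a 2-gene operon, rested on 2 RPF reads in DMSO replicates 2 and 3 and had 2, 0 and 1 RPF reads in the Torin 1 libraries, beside 292, 363 and 891 RNA reads there. The next were GSOIDT00003184001, GSOIDT00005640001 and GSOIDT00003133001, with ratios of 0.0391, 0.0400 and 0.0401 from 6, 3 and 4 RPF reads.

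Above all other members in RNA stood GSOIDT00010352001 (scaffold 32, 187964 to 190048, plus strand), a gene outside operons with 5 coding exons, 912 bp of coding sequence and 555 bp of annotated UTR. It had 12801, 10336 and 18159 RPM in the RNA DMSO libraries, a mean of 13765 ± 3999 RPM (SD, n = 3), and 348 and 879 RPM in RPF DMSO replicates 2 and 3. Unlike the members of low level, it had 598 RPF reads behind its ratio of 0.0446, so counting error was small for it (exact 95% Poisson interval 551 to 648 reads). RPF DMSO replicate 1 gave 3026 RPM. In Torin 1 animals its RNA level was 2260, 10213 and 7231 RPM and its RPF level 1005, 462 and 2447 RPM. All 3 RNA Torin 1 values lay below all 3 RNA DMSO values, the one in replicate 2 by little, while the RPF values of both treatments overlapped.

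GSOIDT00010390001, the member with the next highest RNA level, had 707, 1101 and 890 RPM in the RNA DMSO libraries. Its model has the shortest coding sequence of all members, 108 bp in 2 exons, and it ends 1 bp before GSOIDT00010389001, the gene with the most RNA in all 3 RNA DMSO libraries. GSOIDT00010389001 was no member, at 19033 RPM in RNA and 10829 RPM in RPFs. Whether reads of the larger neighbour were counted to GSOIDT00010390001 was not tested, since how the authors assigned reads near gene ends is not stated. GSOIDT00000302001, at 627, 635 and 795 RPM, was the downstream gene of a 2-gene operon and had 1436 bp of UTR, 65.2% of its exonic length. GSOIDT00009083001, at 650, 541 and 619 RPM, had the longest coding sequence of all members, 7296 bp.

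A name was at hand for a single member. GSOIDT00000922001 (scaffold 1, 2859563 to 2860325, plus strand) is given in the study's list of TOP mRNAs as RPLP1, an acidic protein of the ribosomal stalk, with a spliced leader. It had 596, 663 and 598 RPM in the RNA DMSO libraries and 36.6 and 62.8 RPM in RPF DMSO replicates 2 and 3, from 53 reads in all. In Torin 1 animals it had 326, 682 and 355 RPM in RNA and 54.3, 27.5 and 131 RPM in RPFs, without overlap between both assays. The other gene model listed as RPLP1, GSOIDT00000470001, was no member: its ratio in DMSO animals was 0.298, where that of GSOIDT00000922001 was 0.0819. Reads that fit both models could have been split or dropped, and the handling of such reads is not stated.

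Of the listed TOP mRNAs no other was a member, and models outside that list carry no name. The study drew up a list of 88 gene models with human TOP mRNAs or S6 kinases as counterparts. Of these, 84 reached the RNA minimum and 1 was a member, which is the RPLP1 model. The closest of the others was GSOIDT00000569001, the ortholog of RPS6KB1, the S6 kinase that mTOR activates, at rank 169 of 4326 with a ratio of 0.113. RPS29, a protein of the small ribosomal subunit, followed at rank 397 with a ratio of 0.169.

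Together the members took 3.67, 3.14 and 4.63% of all counts in the RNA DMSO libraries. They took 0.198 and 0.297% in RPF DMSO replicates 2 and 3 and 1.27% in replicate 1, which the rule did not use and which resembled RNA. In the Torin 1 libraries, which the rule also did not use, they took 1.40, 3.13 and 2.36% of RNA counts and 0.379, 0.215 and 0.818% of RPF counts. Of these, RNA Torin 1 replicate 2, at 3.13%, nearly copies RNA DMSO replicate 2, which the rule did use. The share was lower in each RPF Torin 1 library than in each RNA Torin 1 library, also with that library left out. Without GSOIDT00010352001 the shares were 1.17, 2.11 and 1.63% in RNA Torin 1 and 0.278, 0.169 and 0.573% in RPF Torin 1, again without overlap. As whole animals were sequenced, fewer cells of a type and less RNA per cell cannot be told apart in any of these levels.

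**Figure D2:**
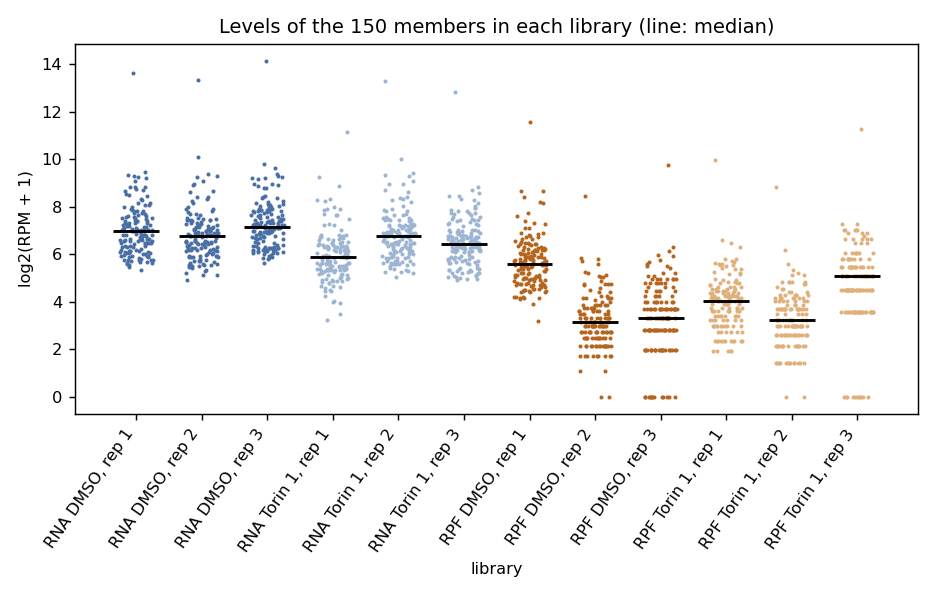
Each point is 1 of the 150 members in 1 library, with log2(RPM + 1) on the y axis and the 12 libraries on the x axis. Black lines are medians. The members lie low in RPF DMSO replicates 2 and 3 and in RPF Torin 1 replicates 1 and 2, where medians were 8.00, 8.97, 15.3 and 8.58 RPM. RPF DMSO replicate 1, with a median of 47.6 RPM, and RPF Torin 1 replicate 3, with 32.8 RPM, lie closer to RNA. The rows of points at equal height in the shallow RPF libraries are genes with the same small number of reads.

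Whether the members also had few RPFs per RNA under Torin 1 was tested in the 6 libraries of that treatment. The rule named none of them, but RNA Torin 1 replicate 2 nearly copies RNA DMSO replicate 2, which the rule used. The test is thus not free of the choice, and values without that library follow below. All 150 members had a lower fitted RPF than RNA level in these 6 libraries, as did 3181 of the 4326 genes at the RNA minimum. The members' median log2 ratio was −2.05, with an interquartile range of −2.36 to −1.76 and a range of −4.20 to −0.63. The median over all 14574 genes tested was −0.42, which lay below 0 and moved with the scaling (−0.88 with library totals only), and that over the other 4176 genes at the RNA minimum was −0.60. With edgeR's quasi-likelihood test and Benjamini-Hochberg adjustment over all genes, none of the 150 members passed an adjusted p of 0.05, and the lowest adjusted p of a member was 0.289. The test called 0 of 14574 genes (0% called). At an unadjusted p under 0.05, 117 of 150 members were lower in RPFs and 0 higher, where 9.21% of all genes tested and 17.9% of those at the RNA minimum were lower. With DESeq2, 11 of the 68 members that received an adjusted p were lower, against 2.29% of the 3628 genes that received one.

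Libraries that stood apart shaped this result. Without RNA Torin 1 replicate 2, the near copy of a library of the rule, 84 members were lower at an unadjusted p under 0.05, against 8.95% of the genes at the RNA minimum, and the median log2 ratio was −1.78. Another setting left out RNA Torin 1 replicates 2 and 3. It was chosen after the data were seen, leaves 1 RNA library and assumes that it varies like the RPF libraries. In it 144 members were still lower in RPFs, as were 2132 of the 4326 genes at the RNA minimum. The members' median was −1.30 against −0.25 over all genes. There 55 members were lower at an unadjusted p under 0.05, against 9.08% of the genes at the RNA minimum, and 12 passed an adjusted p of 0.05, as did 2.59% of all genes tested. Without RPF Torin 1 replicate 2 the count at an unadjusted p was 39, against 4.95% of the genes at the RNA minimum, and without RPF Torin 1 replicate 1 it was 66, against 9.15%. A block by replicate number assumed that RNA and RPFs of one number came from the same beaker, which the labels do not state. With this block, 1 member passed the adjusted p, against 0.0412% of all genes tested. The unadjusted p was passed by 94 members, against 10.8% of the genes at the RNA minimum.

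By RPM alone, all 3 RPF Torin 1 values lay below all 3 RNA Torin 1 values for 128 of 150 members, 85.3%, against 47.6% of all genes at the RNA minimum. None of the members had all 3 RPF values above all 3 RNA values. Without RNA Torin 1 replicate 2 the count was again 128 members, against 48.5% of the genes at the RNA minimum. The members' median RNA level was highest in that library, at 109 RPM against 57.9 and 86.7 RPM in replicates 1 and 3. Leaving it out could therefore change this count little.

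The size of the difference varied between collections. The log2 ratio of RPF to RNA, each plus 1 RPM, had a median over members of −1.92, −3.50 and −1.55 in Torin 1 replicates 1, 2 and 3, where the other genes at the RNA minimum had −0.67, −1.23 and −1.05. The members' median ratio was thus 0.420, 0.207 and 0.707 times that of the other genes. The largest difference was in replicate 2, whose RNA library was the near copy of one that the rule used. The smallest was in replicate 3, whose RPF library held 91549 counts, so that 3 counts made 32.8 RPM, and for 97 members it held 3 counts or fewer. In DMSO replicate 1, whose RPF library resembled RNA, the medians were −1.42 for members and −0.96 for the other genes, and 118 of 150 members lay below the median of the others. In Torin 1 animals 109 members lay below the median of the other genes in all 3 collections, 40 in 2 of them and 1 in a single one. In replicate 2 all 150 lay below it, so the count of 109 was set by replicates 1 and 3. The share of the other genes was counted for those replicates only and is given below. By the mean of the 3 Torin 1 collections, 25 of the 150 members were again among the 150 lowest genes, 133 were in the lowest 25% and 0 were above the median. Without the collection of replicate 2, 109 members lay below the median of the other genes in both remaining collections, as did 29.8% of the other genes. By the mean of both, 11 members were among the 150 lowest genes, 99 in the lowest 25% and 8 above the median.

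**Figure D3:**
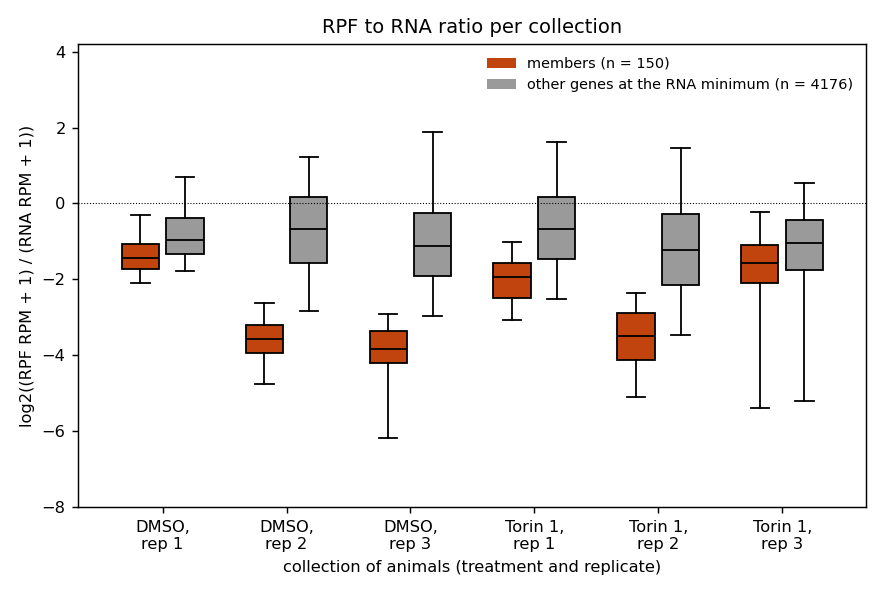
Boxes show the log2 ratio of RPF to RNA (each plus 1 RPM) of the 150 members (red) and of the 4176 other genes at the RNA minimum (grey), for each treatment and replicate on the x axis. The line in a box is the median, the box spans the quartiles and the whiskers the 5th to 95th percentiles. The members were chosen on both assays of DMSO replicates 2 and 3 and on the RNA of DMSO replicate 1. Torin 1 replicate 2, whose RNA library nearly copies one of these, has a median of members of −3.50, and DMSO replicate 1 and Torin 1 replicate 3 have boxes that overlap those of the other genes.

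Members with the highest RPF to RNA ratio in Torin 1 animals came near the general median. GSOIDT00011072001 had 76.0, 139 and 91.9 RPM in the RNA Torin 1 libraries and 36.2, 27.5 and 98.3 RPM in the RPF Torin 1 libraries, with values that overlap and a log2 ratio of −0.63 ± 0.70 (SE, edgeR). GSOIDT00002142001 had a log2 ratio of −0.86 ± 0.74. At the other end stood GSOIDT00015361001, with 241, 119 and 120 RPM in the RNA Torin 1 libraries and 6.96, 3.43 and 10.9 RPM in the RPF Torin 1 libraries, from 5, 2 and 1 reads. Its log2 ratio was −4.20 ± 0.78 (edgeR adjusted p = 0.289), the lowest of the members.

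Behaviour under Torin 1 relative to DMSO is given as a description, because the rule used the DMSO libraries of both assays. A high RNA level and a low RPF level in DMSO animals were chosen, so lower RNA and higher RPFs in the other treatment are what the choice itself favours. In RNA the fitted log2 change had a median of −0.58 over the members, against 0.22 over all genes tested and −0.42 over the other genes at the RNA minimum. It was negative for 147 of 150 members and for 3558 of the 4326 genes at the RNA minimum. The members thus lay 0.80 below the median of all genes on the log2 scale, and most of that distance was shared by other genes of their RNA level. None of the 150 passed an adjusted or an unadjusted p of 0.05 in edgeR's test, and DESeq2 likewise called 0 members. Over all genes tested DESeq2 called 0 lower and 81 higher, and edgeR called 0 at the adjusted p. At the unadjusted p, 0.0274% of all genes tested were lower, while 1465 were higher.

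The RNA libraries of Torin 1 animals differed among themselves. Against the mean of the RNA DMSO libraries, the members' median log2 RPM was −1.14 in Torin 1 replicate 1, −0.23 in replicate 2 and −0.54 in replicate 3, and that of the other genes at the RNA minimum −0.87, −0.10 and −0.51. For 44 members, 29.3%, all 3 RNA Torin 1 values were below all 3 RNA DMSO values, against 16.7% of the genes at the RNA minimum. Without RNA Torin 1 replicate 2 this held for 106 members, 70.7%, against 58.8% of the genes at the RNA minimum. Without RNA Torin 1 replicates 2 and 3, which leaves replicate 1 as the only Torin 1 library and assumes that it varies like the DMSO libraries, 101 members were lower at an unadjusted p under 0.05, against 51.5% of the genes at the RNA minimum. The median change was then −1.36 for the members, −1.08 for the other genes at the RNA minimum and 0.06 over all genes.

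GSOIDT00010390001 had the most negative fitted RNA change of the members, −1.07 ± 0.93 (SE, edgeR). It had 67.1, 1038 and 175 RPM in the RNA Torin 1 libraries against 707, 1101 and 890 RPM in the RNA DMSO libraries, so that replicates 1 and 3 were low and replicate 2 was not. GSOIDT00010352001, the member with the most RNA, came next with −1.04 ± 0.65. Only 3 members had a positive value. The highest was that of GSOIDT00015361001, a single-exon model of 309 bp of coding sequence, with 66.4, 119 and 66.6 RPM in RNA DMSO and a change of 0.93 ± 0.43 (adjusted p = 0.452). GSOIDT00000572001 had 0.27 ± 0.48, which turned negative without RNA Torin 1 replicate 3 (−0.45).

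In RPFs the members' median log2 change was −0.48 against −0.24 over all genes and −0.41 over the other genes at the RNA minimum. It was negative for 128 of 150 members and for 3341 of the 4326 genes at the RNA minimum. No member passed the adjusted p with edgeR or DESeq2, and both called 0 of all genes tested. At an unadjusted p under 0.05 with edgeR, 3 members were lower, where 4.12% of all genes were. The direction turned without RPF DMSO replicate 1, where the median was 0.72 against 0.01 over all genes. There 10 of 150 members had a negative value, against 3024 of the 4326 genes at the RNA minimum. On the DMSO side that setting leaves only the RPF libraries that chose the members, so higher values are what the choice favours. Without RPF Torin 1 replicate 2 the median was −0.07 against −0.31 over all genes, so that the members lay above the median of all genes there too.

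Translational efficiency, the change in RPFs beyond that in RNA, had a median log2 change of 0.17 over the members and −0.46 over all genes tested. It was negative for 59 of 150 members and for 2070 of the 4326 genes at the RNA minimum. The interaction test of edgeR called 0 members and 0 genes, with 1 member lower at an unadjusted p under 0.05, where 7.5% of all genes were. DESeq2 called 140 genes lower and 1 higher, with 0 members among them. Relative to all genes the members' median lay 0.63 higher, and relative to the other genes at the RNA minimum, whose median was 0.03, it lay 0.15 higher. Without all libraries of replicate 3 it lay at −0.22 relative to all genes. The direction relative to 0 turned with the scaling: the members' median was −0.12 with library totals only and −0.01 with the size factors of DESeq2. With the replicate block it was 0.72. Without RPF DMSO replicate 1 the members' median was 1.53, with 28 members higher at an unadjusted p under 0.05, against 1.06% of the genes at the RNA minimum. Without that library, RNA Torin 1 replicates 2 and 3 and RNA DMSO replicate 2 it was 2.38, against 0.17 over all genes and 0.77 over the other genes at the RNA minimum. There 76 members were higher at the unadjusted p, against 8.41% of the genes at the RNA minimum, and 0 at the adjusted one.

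The largest fitted changes in efficiency stood on few reads. GSOIDT00015361001 had −3.19 ± 1.36 (edgeR adjusted p = 0.578), with 92.8 RPM in RPF DMSO replicate 1, 4.57 and 2.99 RPM in replicates 2 and 3, and the 3.43 to 10.9 RPM in RPF Torin 1 given above. GSOIDT00000572001 had −2.97 ± 1.43, with 154, 5.72 and 5.98 RPM in RPF DMSO and 6.96, 6.86 and 10.9 RPM in RPF Torin 1. In both, the high DMSO value was that of replicate 1, and without that library the change was −0.12 for GSOIDT00015361001 and 0.33, with the sign turned, for GSOIDT00000572001. On the other side, GSOIDT00016123001 had 1.49 ± 1.06 and GSOIDT00011072001 1.46 ± 0.93 (adjusted p = 0.874 and 0.836).

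The gene models, which the rule did not use, give the place of the members in operons. Neighbouring models in the same orientation were taken as one operon where no more than 60 bp lay between them. By that measure 60 members (40.0%) lay downstream in an operon, 35 (23.3%) first and 55 (36.7%) outside. Among all genes at the RNA minimum 36.4% lay downstream, 19.4% first and 44.3% outside, and among all genes tested 23.4, 13.1 and 63.4%. Most of the distance from all genes was shared by the other genes at the RNA minimum. Members thus made up 3.82% of the downstream genes at the RNA minimum, 4.18% of the first genes and 2.87% of those outside. With a limit of 30 bp, 21.3% of members and 20.6% of the genes at the RNA minimum lay downstream, and 61.3 and 64.3% outside, so the difference in that class depended on this limit. Operons of 2 genes held 43 members, 28.7%, where they held 20.9% of the genes at the RNA minimum.

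Coding sequences of the members were longer at the median than those of the genes they were drawn from, and annotated UTRs shorter. The median coding length was 1640 bp, against 1380 bp for the genes at the RNA minimum and 954 bp for all genes tested. Under 1000 bp of coding sequence was found for 29 members (19.3%), where 30.8% of the genes at the RNA minimum were that short, and over 2000 bp for 50 members (33.3%, against 27.5%). The members had a median of 7 coding exons, against 6, and a median intron length summed over the gene of 554 bp, against 436 bp. UTRs made up a median of 6.03% of the exonic length, against 11.5%, and 25 members (16.7%) had no annotated UTR, against 11.0%. Annotated UTRs depend on the transcript evidence behind each model, and 6 members (4.00%, against 2.04%) are marked as incomplete models. The UTR share was less stable than the lengths: with RPF DMSO replicate 3 alone choosing the genes, its median was 9.93%. These are counts beside the background and no test was made.

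**Figure D4:**
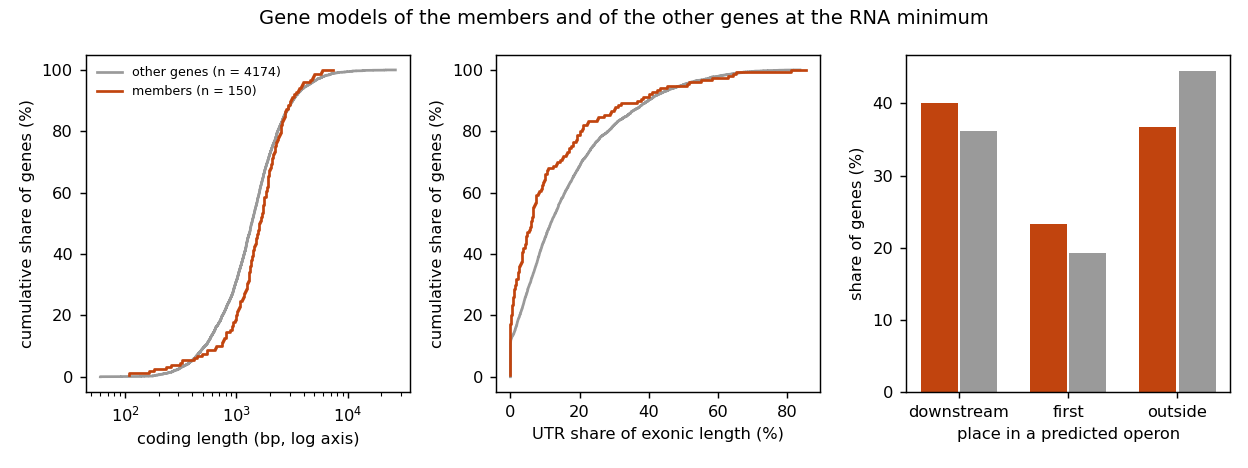
The left and middle panels show the cumulative share of genes (y axis, %) by coding length (x axis, bp, log axis) and by the UTR share of the exonic length (x axis, %), for the 150 members (red) and 4174 other genes at the RNA minimum with a model (grey). The right panel gives the share of genes (y axis, %) downstream, first or outside in a predicted operon. The members' coding lengths are shifted to the right, with a median of 1640 bp, and their UTR shares to the left, with a median of 6.03%.

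The members lay on 73 scaffolds. Scaffold 1 held 15 of them among 335 genes at the RNA minimum (4.48%) and scaffold 32 held 8 among 63 (12.7%), where members made up 3.47% of all genes at the RNA minimum. The 95 members within operons were spread over 89 operons, of which 5 held more than 1 member.

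Genes of one operon are transcribed together, but the operons here are predicted from spacing and strand alone. Shared transcription was not tested, and RNA levels differed, from 4.69 to 685 RPM within a 9-gene operon on scaffold 1. The other genes of these 89 operons are given as a comparison for the members. Of 201 such neighbours, 113 reached the RNA minimum, and their median ratio in DMSO animals was 0.565, where that of the members within operons was 0.0840 and that of 2202 genes of other operons 0.520. The first and last of these values exclude members alike, and the ratio of the members was fixed by their choice. In Torin 1 animals the median log2 ratio, as the mean of 3 collections, was −1.07 for the neighbours, −2.32 for the members within operons and −1.13 for genes of other operons. Without the collection of replicate 2 these medians were −0.74, −1.65 and −0.96. A ratio at least 3 times the highest of any member was found for 87 of the 113 neighbours, 77.0%, and for 76.2% of all other genes at the RNA minimum, so the neighbours did not stand apart from other genes by this measure.

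In the operon with the most members, 3 of 4 genes belonged to the list (scaffold 24, minus strand). The first gene, GSOIDT00008147001, had a ratio of 0.919 in DMSO animals, and the 3 genes after it, GSOIDT00008146001, GSOIDT00008145001 and GSOIDT00008144001, had 0.0895, 0.0994 and 0.0802. Their mean RNA levels were 138, 173, 229 and 148 RPM in that order, and their mean RPF levels in DMSO replicates 2 and 3 were 126, 14.5, 21.8 and 10.9 RPM. RNA was thus of one order along the operon, while RPFs were high on the first gene and low on the 3 that follow. The low ratios of the 3 members in DMSO animals were fixed by their choice. The mean log2 ratio of the 3 Torin 1 collections was −1.25 for the first gene and −3.20, −2.31 and −2.42 for the 3 members, and without replicate 2 it was −0.79, −2.29, −2.09 and −1.53. The collections differed: in replicates 1 and 2 the first gene lay above all 3 members. In replicate 3 the first gene, at −2.12, lay below GSOIDT00008145001 and GSOIDT00008144001, at −1.13 and −1.56. GSOIDT00008145001 and GSOIDT00008144001 are long, with 5895 and 3651 bp of coding sequence.

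The RPLP1 model GSOIDT00000922001 is the first of a 4-gene operon on scaffold 1, and the third gene, GSOIDT00000924001, was a member as well, with a ratio of 0.0828. It had 66.8, 58.7 and 123 RPM in the RNA DMSO libraries and 5.72 and 5.98 RPM in RPF DMSO replicates 2 and 3, from 7 reads. The last gene of that operon, GSOIDT00000925001, had a similar RNA level of 73.8 RPM and a ratio of 0.708. In Torin 1 animals the mean log2 ratios of these genes were −2.86, −3.14 and −0.69, and without replicate 2 they were −1.996, −2.47 and −0.90.

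A 9-gene operon on scaffold 1 held a pair of members side by side. GSOIDT00000825001, of 231 bp of coding sequence, and GSOIDT00000826001, of 2226 bp, had ratios of 0.0635 and 0.0965. Just before them lies GSOIDT00000824001, listed as the ortholog of TPT1, the translationally controlled tumour protein encoded by a TOP mRNA, with 685 RPM in RNA and a ratio of 0.327, and at the end GSOIDT00000830001 with 0.879. TPT1 ends 1 bp before GSOIDT00000825001, so that reads near the border could be assigned to either. In Torin 1 animals the mean log2 ratios of the members were −2.27 and −3.36. Those of TPT1, GSOIDT00000829001 and GSOIDT00000830001 were −2.61, −1.98 and −0.67. Without replicate 2 the members had −1.71 and −2.41, and these other genes −1.93, −2.27 and −0.45. GSOIDT00000825001 thus did not lie below TPT1. The smallest operon of the 5 had only members: GSOIDT00011073001 and GSOIDT00011072001, a pair on scaffold 38, had ratios of 0.0795 and 0.106. Their mean log2 ratios in Torin 1 animals were −2.53 and −1.08, or −2.02 and −0.48 without replicate 2. The remaining operon, of 7 genes on scaffold 31, had its members at positions 1 and 4, GSOIDT00010237001 and GSOIDT00010234001, with ratios of 0.0816 and 0.0425, between neighbours at 0.341 to 0.514. In Torin 1 animals these members had mean log2 ratios of −2.06 and −3.20, or −1.51 and −2.67 without replicate 2. GSOIDT00010236001, a neighbour, had −2.19, or −1.50 without replicate 2, so GSOIDT00010237001 did not stand apart from it. The other neighbours at the RNA minimum had −1.67 to −0.85, or −1.35 to −0.28.

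**Figure D5:**
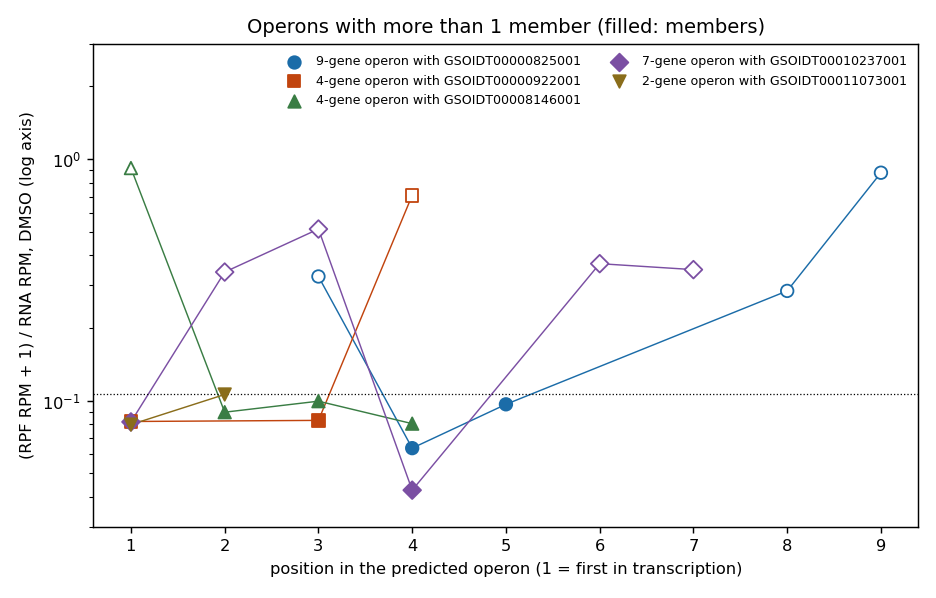
The ratio of RPF (plus 1 RPM) to RNA in DMSO animals is plotted on a log y axis against the position of a gene in its predicted operon, for the 5 operons that hold more than 1 member. Filled symbols are members and open symbols other genes that reached 50 RPM in RNA, genes below that level are not drawn, and the dotted line marks the highest ratio of a member, 0.107. Members and genes with ratios up to 0.919 stand in the same operons.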

How the data were processed

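The authors first discarded rRNA and tRNA reads (Bowtie2 2.1.0), then mapped the remainder with TopHat2 2.0.13 to the O. dioica genome and counted them per Genoscope gene model with featureCounts. Per the file header, the deposited table holds raw counts per gene for 12 libraries, with 0 columns left unmapped to a sample. Strand and multi-mapped reads are not stated in the sources used here. The deposited annotation gives exon, UTR and gene positions of 18020 models on scaffolds, counted from 1. Of 17212 counted genes, 17113 had a model. No genome sequence was used, and 0 identifiers matched the RefSeq gene table.

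RPM used library totals. Genes with 100 reads or more over all libraries (14574) were fitted with edgeR 4.0.16 in R 4.3.3 (TMM factors, quasi-likelihood F-test, Benjamini-Hochberg over all genes, threshold 0.05), with DESeq2 1.42.0 as an alternative. SE are the log2 change over the root of F. An interaction over 12 libraries stood in for babel, which the study used and which was not installed. Replicates were separate beakers. Only the fit of RPFs against RNA was tested on simulated counts. Those were drawn with a set spread that was not estimated from these data. RNA and RPFs of one number were taken to share a beaker, which the labels do not state. Their deviations from the group means correlated at only −0.20 to 0.08. The study mentions 3 collections of animals across both treatments, but the sources used here do not say that equal numbers mark one collection, and between treatments the deviations correlated at −0.22 to 0.64.

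The members and lists were chosen with earlier results of these data known. Named are the members with the lowest ratios, the most RNA, a gene name, the highest ratio under Torin 1 (none passed the threshold on the low side), the largest changes in RNA and efficiency, the genes around the selection limit, and operons with more than 1 member. For the changes and the highest ratios, 2 identifiers per direction are given at most, as only the models in the study's list of TOP mRNAs carry names. Values without the collection of Torin 1 replicate 2 were added after seeing the data. The lowest ratio under Torin 1 was named after its value was seen. Marker lists by keyword could not be applied.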

Additional observations from a re-analysis of the deposited data

How the results depend on the processing

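For RPFs against RNA in Torin 1 animals the members' median relative to all genes was −1.63 (log2), and it was −2.04 to −1.05 over the alternatives run. No member passed the adjusted p in the main test; 11 did with DESeq2, 1 with the replicate block, 12 without RNA Torin 1 replicates 2 and 3 (chosen after seeing the data), and 0 to 8 when single libraries were left out. At the unadjusted p, 39 to 142 members were lower with single libraries left out and 55 without RNA Torin 1 replicates 2 and 3. Without these libraries the log2 ratio turned positive for GSOIDT00000302001 (0.070), GSOIDT00003133001 (0.50), GSOIDT00010390001 (0.79) and GSOIDT00016123001 (0.79).

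For RNA between treatments, the members' median relative to all genes (main −0.80) was −0.97 without the filter, −1.42 without RNA Torin 1 replicates 2 and 3 and −1.05 to −0.36 with single libraries left out. Members lower at the unadjusted p numbered 1 with library totals, 1 with the replicate block, 101 without RNA Torin 1 replicates 2 and 3 and 0 to 11 with single libraries left out, and members higher 1 without those 2 libraries and 0 to 1. GSOIDT00000572001 ranged from −0.45 (without RNA Torin 1 replicate 3) to 0.56 and was −0.73 without replicates 2 and 3.

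For RPFs between treatments, 0 to 2 members passed the adjusted p with single libraries left out. At the unadjusted p 0 to 24 were lower and 0 to 2 higher, with 0 lower by DESeq2 and 1 with the replicate block. The 24 were found without RPF DMSO replicate 2, where 272 of the 4326 genes at the RNA minimum were lower. At the adjusted p, 2 members and 11 of these genes were lower in that setting. The 2 higher members were found without RPF DMSO replicate 1, where 41 of these genes were higher. For efficiency, members lower at the unadjusted p numbered 0 with DESeq2, 2 with the RLE size factors, 2 with library totals, 0 with the replicate block, 0 without the 4 libraries that stood apart and 0 to 3 with libraries left out. Members higher numbered 0 to 28 with libraries left out and 76 without those 4, where the median relative to all genes was 2.21 (main 0.63, −0.22 to 1.68 with libraries left out). GSOIDT00000572001 ranged from −3.49 to 0.33 (without RPF DMSO replicate 1), was 0.078 without all libraries of replicate 1 and was 1.30 without the 4. GSOIDT00015361001 ranged from −3.85 to 0.025 (without all libraries of replicate 1). The replicate block changed no other call.

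Of the 150 members, 91 and 92 were chosen again with RPF DMSO replicate 2 or 3 alone, 90 with all 3 RPF DMSO libraries, and 95 and 96 with an RNA minimum of 20 or 100 RPM. With an operon limit of 30 bp, 21.3% lay downstream and 61.3% outside, against 20.6 and 64.3% of the genes at the RNA minimum. The median UTR share was 9.93% with RPF DMSO replicate 3 alone. The cause of these changes was not tested, other than that fewer libraries enter. RPF depth limits single members: a median of 18 reads over the 3 RPF Torin 1 libraries stood behind each.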
